A study of Brassica napus with 12 samples.

Results

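The most abundant nuclear transcripts of unstressed rapeseed seedlings are described here: the 195 genes on A or C chromosomes of Brassica napus whose mean level over 6 control libraries was at least 300 RPKM, of 96921 A or C genes and 109614 genes listed in all. RPKM scales the reads on a gene by gene length and library size, so a level is relative to all other transcripts of that library. All seedlings were about 1 week old, with flat cotyledons and a first true leaf just forming. They belonged to a pool of 5 germplasm called resistant or to a pool of 5 called susceptible to submergence, and each pool was sampled as control under normal growth and after 24 h fully under distilled water, with 3 biological replicates in each of the 4 groups. Every library mixed equal amounts of the 5 germplasm of its pool, so a difference between pools cannot be told apart from a difference between the particular germplasm chosen.

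In seedlings, as in most tissues, a small set of genes supplies a large part of the messenger RNA, and in green cotyledons nuclear genes for light harvesting, carbon fixation and protein synthesis are usual examples. Complete submergence slows gas exchange and dims light, and plants under water are known to redirect transcription and translation towards fermentation and sugar breakdown. None of the 195 identifiers matched the RefSeq table of another rapeseed assembly used here, and the deposited table pairs none of them with a gene name. The genes are therefore given by identifier, with the chromosome that the identifier states, and no function is ascribed to any of them. In RNA of whole seedlings, fewer cells of a type and less RNA per cell cannot be told apart.

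The abundant genes covered a wide range of levels. In the mean of the 6 controls, 16 genes were at 1000 RPKM or more, 61 at 500 to 1000 and 118 at 300 to 500. The gene just inside the limit, BnaC01G0004600ZS, averaged 301.2 RPKM and the gene just outside it, BnaC03G0535400ZS, 299.6 RPKM. The 6 controls did not place every gene alike: 128 genes reached 300 RPKM in the mean of both pools, 34 in the resistant controls only and 33 in the susceptible controls only. At least 300 RPKM in all 6 controls was found for 93 genes, and 36 would have been under the limit had some single control been left out. No gene of the 195 was listed at 0 in any library; the lowest value was 14.3 RPKM. These control levels chose the genes and are a description.

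By identifier, 95 of the abundant genes lay on A chromosomes (48.7%) and 100 on C chromosomes (51.3%), the proportions of the tested A and C genes, 48.7% and 51.3%. A09 carried 23 of them and C03 17. Per 1000 tested genes, A04 had 6.94, A09 5.53 and C04 5.25, against 1.65 on A05 and 3.73 over all A and C chromosomes. In the resistant response described below, 27 of the A genes fell (28.4%, against 25.5% of all tested A genes) and 41 of the C genes (41.0%, against 28.6%), while 8 rose on each side (8.42% and 8%, against 12.1% and 12.6%). In the susceptible response 34 A and 40 C genes fell (35.8% and 40.0%, against 29.8% and 29.0%), and 6 and 7 rose (6.32% and 7%, against 11.6% and 13.3%). The difference between subgenomes was not tested.

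The replicates were uneven in the abundant genes. In the second resistant control, 77.4% of the 195 genes were below their group mean, against 42.2% of all tested genes. In the second susceptible control the shares were 75.4% and 51.8%, and in the third susceptible submerged library 72.3% and 40.1%. The median deviation of the abundant genes from the group mean was -0.22, -0.16 and -0.18 on the log2 scale in these libraries, and 0.21 in the second susceptible submerged library; the medians over all tested genes lay, in all 12 libraries, between -0.035 and 0.045. Read depth, judged from the spacing of the lowest values, ran from 0.638 of that of the deepest library, the first resistant control, and the absolute depth is unknown. The counts of calls below were repeated without each library.

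Of the 3 most abundant genes, 1 rose under water in both pools. BnaC04G0532900ZS, on C04, led the controls. In resistant seedlings it stood at 4951, 2945 and 4717 RPKM without and 3451, 3591 and 3089 RPKM with submergence. In susceptible seedlings it stood at 3004, 2543 and 3923 RPKM without and 2586, 3908 and 2057 RPKM with submergence. Control and submerged libraries overlapped in each pool, and neither response passed the test (log2 change -0.28 ± 0.28 and -0.18 ± 0.28, SE; limma adjusted p = 0.453 and 0.67). BnaA04G0221200ZS, on A04, averaged 2633 ± 433 RPKM in resistant controls, 2240.4 ± 209 RPKM once these were submerged, 1887 ± 195 RPKM in susceptible controls and 1626 ± 641 RPKM once those were submerged (SD, n = 3), again with overlap in each pool. BnaC04G0380700ZS, next in the controls, was at 2449, 2201 and 2337 RPKM in resistant controls and at 4076, 4305 and 3502 RPKM under water. In the susceptible pool its levels were 1720.5, 1553 and 1971 RPKM in controls and 2918, 3954 and 2328 RPKM under water. Its groups did not overlap in either pool, it rose 1.70-fold and 1.72-fold (limma adjusted p = 0.0136 and 0.0112), and it ranked 1st in both submerged groups.

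**Figure D1:**
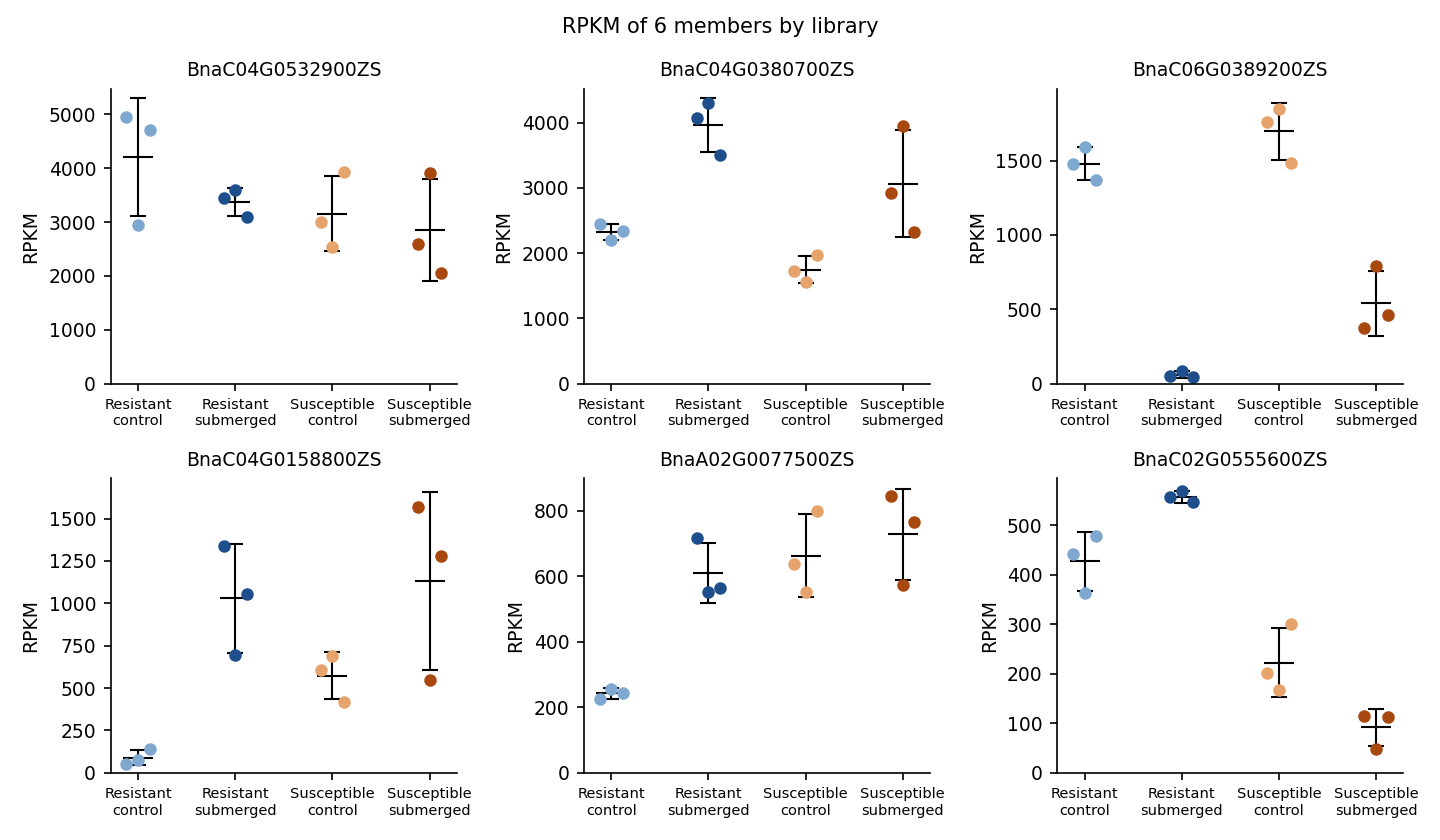
RPKM (y axis, linear from 0) of 6 abundant genes in each library of the 4 groups (x axis); points are libraries, the horizontal mark and bars are the mean and SD of 3. BnaC04G0532900ZS overlaps in all groups, BnaC06G0389200ZS falls to 60.2 RPKM in resistant submerged seedlings, and BnaC04G0158800ZS is low in resistant controls only.

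Under water the mean share of the summed RPKM held by the abundant genes was lower in each pool, though the resistant libraries overlapped. Their share was 13.9%, 11.5% and 14.02% without and 11.8%, 11.8% and 10.6% with submergence in resistant seedlings, with means of 13.2 ± 1.44% and 11.4 ± 0.656% (SD, n = 3). The second resistant control lay below the first and second submerged libraries. In the susceptible pool the share was 12.6%, 11.6% and 13.6% in controls and 10.004%, 11.6% and 8.63% under water, with means of 12.6 ± 0.986% and 10.1 ± 1.46% (SD, n = 3). The lowest control and the highest submerged library were 11.61% and 11.56%, so the groups were apart by a small margin. The difference was -1.76 percentage points in the resistant pool, between -2.59 without the second and -1.33 without the third resistant control, and -2.55 in the susceptible pool. The 10 most abundant genes held 2.31 ± 0.289% in control and 2.26 ± 0.176% in submerged resistant libraries, and 1.90 ± 0.309% and 1.75 ± 0.532% in the corresponding susceptible ones (SD, n = 3). Since control levels chose the genes, a lower share under water is in part set by that choice, and no test is given.

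Of the 195 genes, 118 (60.5%) still averaged at least 300 RPKM over the 6 submerged libraries and 77 did not. Of those 77, 37 stayed at 200 RPKM or more and 10 were under 100 RPKM. The 77 genes held 3.85 ± 0.389% of the summed RPKM in resistant controls and 1.68 ± 0.0520% under water, and 4.23 ± 0.323% and 1.82 ± 0.155% in the susceptible pool (SD, n = 3), while the 118 genes held 9.30 ± 1.05% and 9.71 ± 0.606%, and 8.39 ± 0.738% and 8.24 ± 1.31%. In the other direction, 102 further A or C genes reached 300 RPKM under water, 46.4% of the 220 genes at that level. With median ratio scaling, 155 genes were at 300 RPKM or more in controls and 148 others joined them under water. Without that scaling, the 102 genes held 1.97 ± 0.102% of the summed RPKM in resistant controls and 5.07 ± 0.121% under water. In the susceptible pool they held 2.12 ± 0.0907% and 5.07 ± 0.0834%. Of these 102, 37 were already at 200 RPKM or more in controls and 26 were under 100 RPKM. Submerged levels chose the 102 and the 77, so these are descriptions. The highest of the 102 was BnaA09G0242400ZS. Resistant seedlings had 79.0, 131 and 223 RPKM of it before and 1661, 933 and 1263 RPKM after submergence, and susceptible seedlings 444, 656 and 264 RPKM before and 1520.5, 834 and 1529 RPKM after. It was just under the limit in controls, at a mean of 299.4 RPKM. BnaC03G0671900ZS followed, at 269 RPKM over the controls and 832 RPKM over the submerged libraries.

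**Figure D2:**
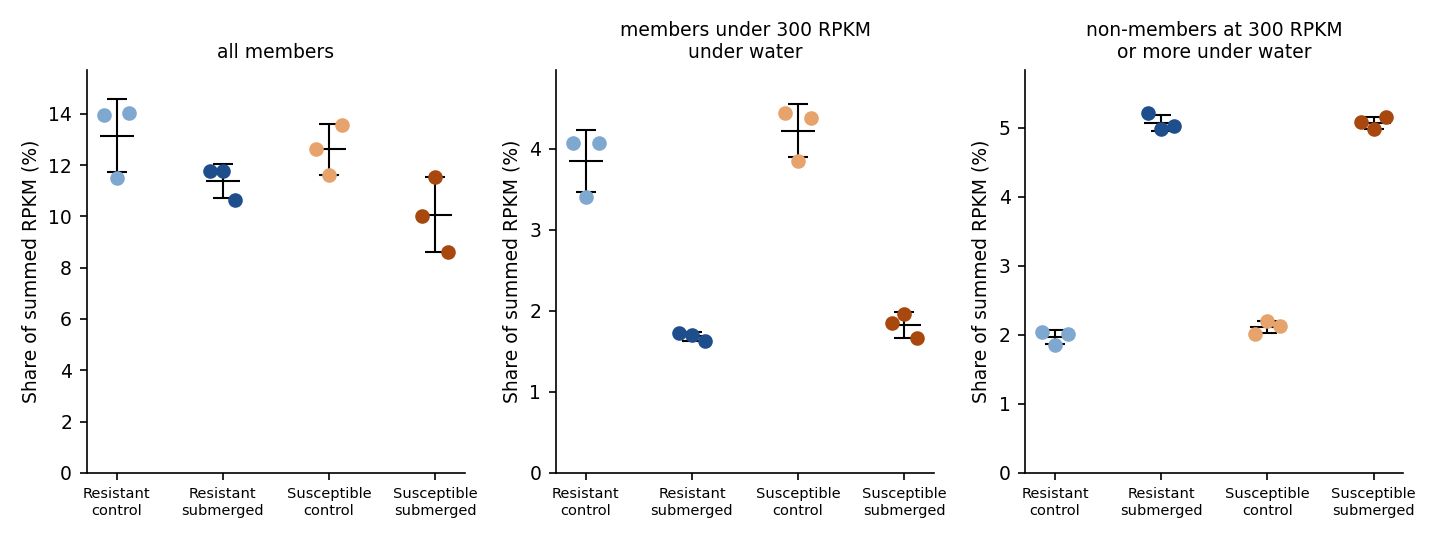
Share of the summed RPKM (y axis, percent, from 0) held by the 195 abundant genes, by the 77 of them that averaged under 300 RPKM under water and by the 102 other genes that reached 300 RPKM there, in each library; marks and bars are mean and SD of 3. The 195 genes overlap between resistant control and submerged libraries, and the other sets, which were chosen from submerged levels, do not.

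**Figure D3:**
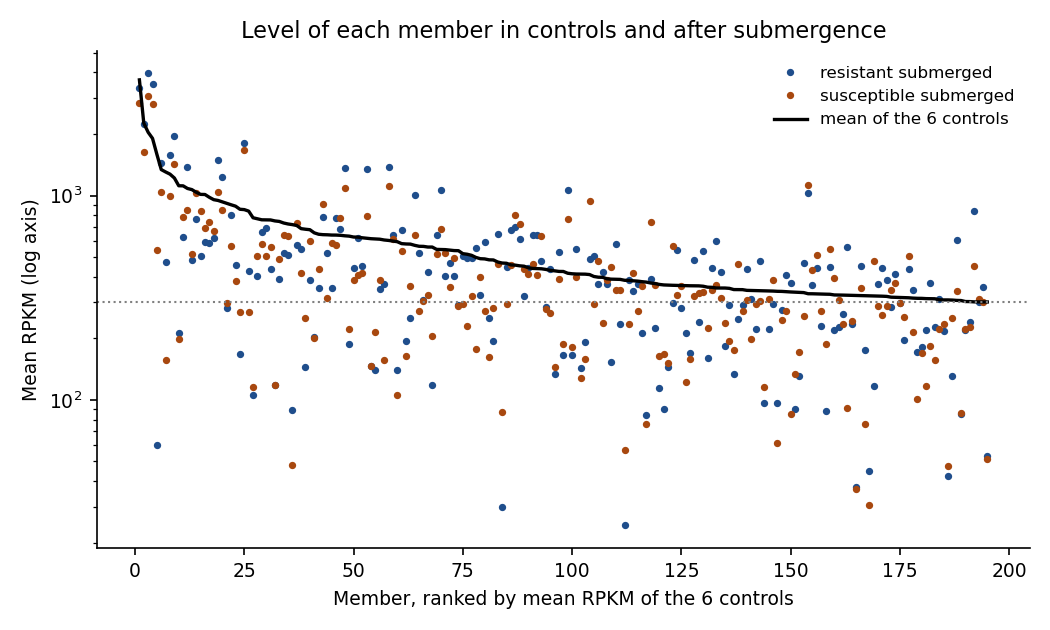
Mean RPKM (y axis, log scale) of each abundant gene in controls (line) and in the submerged libraries of each pool (points), in order of the control mean (x axis); the dotted line is 300 RPKM. The line is smooth because it orders the genes; submerged levels reach from 24.3 to 3961 RPKM.

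In the resistant pool 16 of the 195 genes rose and 68 fell after submergence (limma, adjusted p under 0.05 over 57391 tested genes), 8.21% and 34.9%, against 11.9% and 26.7% of all tested genes. The median log2 change was -0.29, against -0.22 over all tested genes. Control levels chose the genes and are the baseline of this change, which by itself favours falls, so these counts are a description and nothing is read from their excess. Relative to the median of all tested genes, 38 of the 195 (19.5%) were at least 2-fold lower, against 3.5% of tested genes, and 10 (5.13%) at least 2-fold higher, against 7.93%. The genes that rose did so by a median of 1.77-fold and those that fell by 2.45-fold. With median ratio scaling, which moved the median of all tested genes to -0.04, the calls were 25 higher and 54 lower, so that 31.6% of calls were rises in place of 19.0%. Over all tested genes that scaling gave 9976 rises and 8409 falls, in place of 6806 and 15296, so the shift was shared by genes in general. Rises numbered 10 when the first resistant submerged library was left out, and 9 when the second was. Falls numbered 60 and 65 in these fits. Over all tested genes there were 5654 rises and 11697 falls in the first, and 5882 and 11798 in the second.

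The rises in the resistant pool were led by genes that were low in resistant controls. BnaC04G0158800ZS, on C04, was at 52.8, 74.99 and 140.2 RPKM in resistant controls and at 1335, 693 and 1057 RPKM after submergence. These groups were far apart, and the gene rose 11.9-fold (log2 change 3.58 ± 0.44, SE; limma adjusted p = 0.000111). In the susceptible pool it was at 605, 691 and 420.0 RPKM in controls and 1569, 549 and 1277 RPKM under water, with overlap (log2 change 0.88 ± 0.44, SE; limma adjusted p = 0.129). It was among the abundant genes through the susceptible controls. BnaA02G0077500ZS, on A02, was at 225, 257 and 244 RPKM in resistant controls and 716, 552 and 564 RPKM under water, a 2.501-fold rise (limma adjusted p = 0.000395), and at 663 ± 126 and 728 ± 139 RPKM in the susceptible pool (SD, n = 3; limma adjusted p = 0.639). This gene too was an abundant gene only through the susceptible controls. The choice thus admitted both genes despite a low resistant baseline, and their rises are a description.

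The deepest falls took genes from the upper ranks to moderate levels. BnaC06G0389200ZS, on C06, was at 1478, 1594 and 1369 RPKM in resistant controls and at 50.5, 85.5 and 44.5 RPKM after submergence, a 25.2-fold fall (log2 change -4.65 ± 0.29, SE; limma adjusted p = 1.24e-06). Its rank among A and C genes went from 6 to 2145. BnaA03G0163100ZS, on A03, went from 423, 266 and 446 RPKM to 34.2, 14.3 and 24.6 RPKM, a 15.4-fold fall (limma adjusted p = 8.12e-06). In both genes every submerged library was below every control.

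In the susceptible pool, 13 genes were higher (6.67%) and 74 lower (37.9%) after submergence, against 12% and 28.6% of all tested genes (limma, adjusted p under 0.05). The median log2 change was -0.36, against -0.19 over all tested genes. Here too the susceptible controls helped to choose the genes, so the counts are a description. At least 2-fold below that median lay 44 genes (22.6%), against 4.18% of tested genes, and at least 2-fold above it 7 (3.59%), against 7.82%. Median ratio scaling gave 21 rises and 49 falls, 30.0% of calls as rises in place of 14.9%, and put the median of all tested genes at 0.02. Over all tested genes it gave 10790 rises and 9292 falls, in place of 6903 and 16399. Rises numbered 8 without the first susceptible control, and 6 when only the susceptible libraries were fitted. Falls numbered 60 and 53 in these fits. Over all tested genes there were 5905 rises and 14612 falls in the first, and 5665 and 12148 in the second.

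BnaC04G0381200ZS and BnaA04G0100700ZS had the largest rises in the susceptible pool. BnaC04G0381200ZS was at 737, 648 and 856 RPKM in susceptible controls and at 1610.3, 2182 and 1226 RPKM under water (2.19-fold; limma adjusted p = 0.00297). BnaA04G0100700ZS was at 496, 435 and 646 RPKM and then at 1083, 1477 and 794 RPKM (2.09-fold; limma adjusted p = 0.00374). Both also rose in the resistant pool, 1.89-fold and 2.03-fold. The largest falls were in BnaA01G0120500ZS, from 634, 420.2 and 1058 RPKM to 40.5, 52.4 and 50.7 RPKM (13.5-fold lower; limma adjusted p = 6.72e-06), and in BnaC08G0450300ZS, from 361, 299 and 391 RPKM to 35.3, 32.9 and 23.9 RPKM (11.2-fold lower; limma adjusted p = 1.27e-06). Both fell in the resistant pool as well, 8.04-fold and 6.62-fold.

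Choosing the abundant genes from the controls of the other pool left the choosing and the tested libraries separate, but most of the genes stayed the same. The 188 genes at 300 RPKM or more in susceptible controls gave 20 rises and 72 falls in the resistant pool (10.6% and 38.3%), with 38 genes (20.2%) at least 2-fold below and 14 (7.45%) at least 2-fold above the median of all tested genes. The 194 genes at that level in resistant controls gave 14 rises and 70 falls in the susceptible pool (7.22% and 36.1%), with 39 (20.1%) at least 2-fold below and 9 (4.64%) at least 2-fold above the median. The shares for all tested genes are those given above. Of the 188 genes, 161 were among the abundant genes described so far, and of the 194 genes, 162 were. Both choices still took genes for a high level in controls, which can favour falls, so these counts too are a description.

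**Figure D4:**
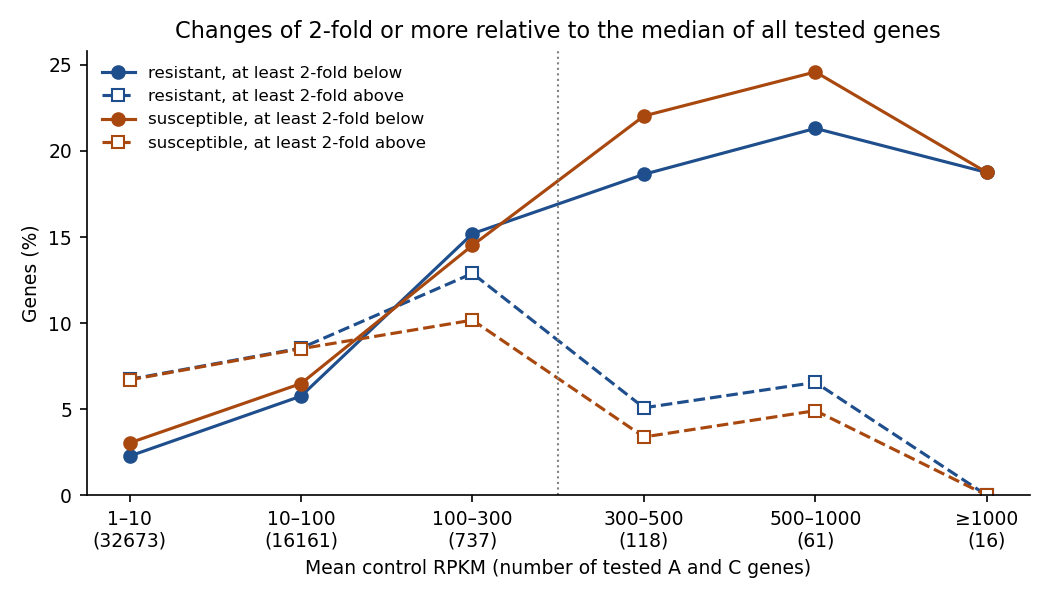
Share of tested A and C genes (y axis, percent) at least 2-fold below (circles) or above (squares) the median change of all tested genes, by mean control RPKM (x axis, number of genes in brackets), in each pool; bands right of the dotted line are the 195 abundant genes. Below-median changes go from 2.28% at 1 to 10 RPKM to 21.3% at 500 to 1000 RPKM in the resistant pool, and the last band holds 16 genes.

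Large falls were more frequent at higher control levels, up to 1000 RPKM. In the resistant pool, changes of at least 2-fold below the median were found for 2.28% of genes at 1 to 10 RPKM, 5.76% at 10 to 100, 15.2% at 100 to 300, 18.6% at 300 to 500, 21.3% at 500 to 1000 and 18.8% (3 of 16 genes) from 1000 RPKM. In the susceptible pool the shares were 3.04%, 6.49%, 14.5%, 22.0%, 24.6% and 18.8%. Changes of at least 2-fold above the median were found for 12.9% and 10.2% of the genes at 100 to 300 RPKM, and for 5.08% and 3.39% of those at 300 to 500 RPKM. Control levels set these bands and also enter the changes, so the shares are a description; the pseudocount of 1 understates changes of the lowest band.

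No abundant gene was called in opposite directions in the pools. The share of such calls over all tested genes is not given here, so nothing is read from this. Of the 195, 56 fell in both pools (28.7%, against 18.5% of all tested genes), 12 rose in both (6.15%, against 8.61%) and 92 were called in neither (47.2%, against 48.1%). The 56 genes that fell in both held 3.72 ± 0.317% of the summed RPKM in resistant controls and 1.39 ± 0.00500% under water, and 4.07 ± 0.372% and 1.47 ± 0.0908% in the susceptible pool (SD, n = 3). The 12 that rose in both held 1.14 ± 0.0745% and 2.08 ± 0.155%, and 0.969 ± 0.0988% and 1.73 ± 0.338%. The 92 called in neither held 6.35 ± 0.960% and 6.22 ± 0.464%, and 5.45 ± 0.518% and 5.17 ± 0.964%. These classes were formed from the responses themselves, so their shares are a description.

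**Figure D5:**
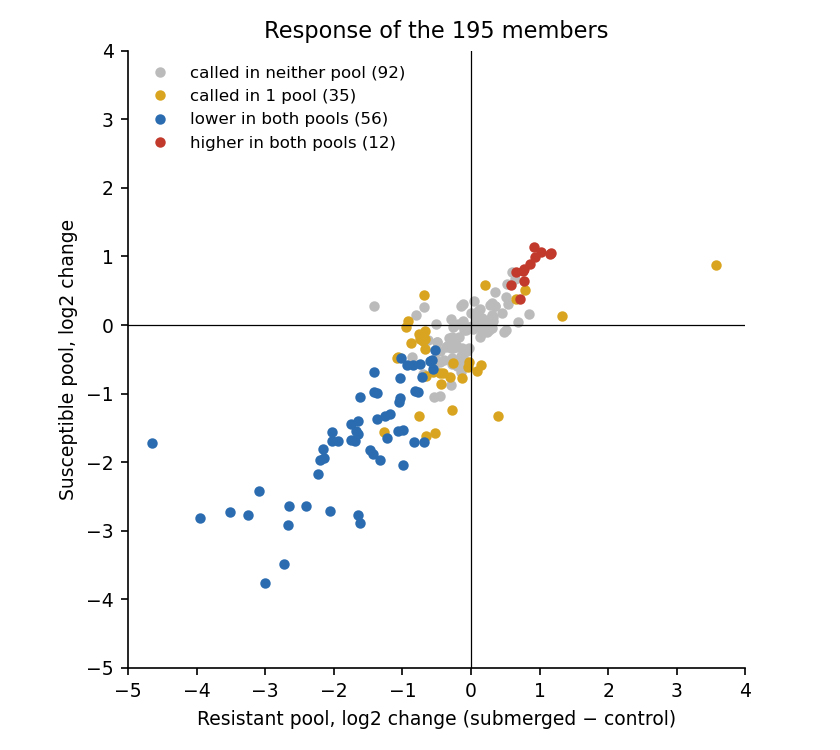
Log2 change after submergence of the 195 abundant genes in the resistant (x axis) and the susceptible pool (y axis), coloured by the limma calls. The 56 genes that fell in both pools extend to -4.65 along x and -3.76 along y, the 12 that rose in both lie between 0.38 and 1.17, and BnaC04G0158800ZS lies apart at 3.58.

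A few abundant genes were neighbours. Within 5 positions of each other in the order of identifiers, 12 genes formed 5 groups. The group on A04 and 1 of the 2 groups on C04 held 3 genes each and, together, 4 of the 12 genes that rose in both pools. How often other tested genes lie this close or share a call is not given here. Nothing is therefore read from these counts. On A04, BnaA04G0100700ZS, BnaA04G0100900ZS and BnaA04G0101200ZS had log2 changes of 1.02, 0.51 and 0.78 in resistant and of 1.06, 0.41 and 0.65 in susceptible seedlings; the middle gene did not pass the test (limma adjusted p = 0.105 and 0.191). On C04, BnaC04G0380700ZS, BnaC04G0381100ZS and BnaC04G0381200ZS had 0.76, 0.35 and 0.92, and 0.78, 0.48 and 1.13, and again the middle gene did not pass (limma adjusted p = 0.364 and 0.211). In all 6 genes the second susceptible submerged library was the highest and the third the lowest of the 3 submerged susceptible libraries. On C07, BnaC07G0230800ZS and BnaC07G0231000ZS differed from each other by 0.161% to 8.45% over the 12 libraries and fell in both pools (log2 change -1.37 and -1.41, and -0.99 and -0.97). How reads shared by near-identical copies were assigned is not given in the sources used here, so levels of neighbours and of A and C counterparts are uncertain.

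The limit on the mean of the 6 controls favours neither pool, but the control libraries are those that chose the genes, 34 of which passed through the resistant and 33 through the susceptible controls alone. Differences between the pools in controls are therefore a description. In controls, the resistant pool had 9 of the 195 genes at a higher level (4.62%) and 17 at a lower one (8.72%), against 10.9% and 5.02% of all tested genes (limma, adjusted p under 0.05). The median log2 difference was 0.19, against 0.06 over all tested genes. The share of calls that were higher, 34.6%, was 15.4% with median ratio scaling (4 and 22), 45.2% with quantile normalization (14 and 17) and 45.5% with only the control libraries (5 and 6). Over all tested genes, 6268 were higher and 2879 lower. These counts became 4420 and 3590, 4938 and 3798, and 4108 and 1841 in the same 3 settings. These counts moved with single libraries. Leaving out the first resistant control gave 4 and 10, and leaving out the third gave 3 and 9. Leaving out the first, the second or the third susceptible control gave 5 and 9, 3 and 11, or 19 and 24, and leaving out the second susceptible submerged library 15 and 20. Counts over all tested genes moved as well. They were 3734 and 1790 without the first resistant control, and 6672 and 3373 without the third susceptible control.

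BnaC09G0013000ZS, on C09, had the largest control level in the resistant relative to the susceptible pool among the called genes without overlap. It was at 436, 467 and 631 RPKM in resistant and 166, 93.3 and 229.6 RPKM in susceptible controls, 3.29-fold higher (log2 difference 1.72 ± 0.41, SE). BnaC06G0392400ZS was at 492, 404 and 488 against 147, 128 and 218 RPKM, 2.86-fold higher. Both were abundant genes only through the resistant controls. In the other direction stood BnaC04G0158800ZS, 6.74-fold lower in resistant controls, and BnaA02G0077500ZS, 2.70-fold lower, both abundant genes only through the susceptible controls. Neither of these 2 genes was called between the pools under water, where their log2 differences were -0.06 ± 0.44 and -0.24 ± 0.20 (SE).

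Under water, the resistant pool had 21 of the 195 genes at a higher level (10.8%) and 17 at a lower one (8.72%). The shares over all tested genes were 11.7% and 4.67% (limma, adjusted p under 0.05). These libraries had no part in choosing the genes. However, 34 genes passed through the resistant and 33 through the susceptible controls alone, so pool differences already present in controls can carry over. The median log2 difference was 0.10, against 0.08 over all tested genes. With median ratio scaling the calls were 10 higher and 22 lower, 31.2% of calls as higher in place of 55.3%. Over all tested genes that scaling gave 4828 higher and 4073 lower, in place of 6736 and 2681. Leaving out the first, the second or the third resistant submerged library gave 8 and 10, 9 and 8, or 10 and 8, and leaving out the first, the second or the third susceptible one gave 9 and 9, 35 and 12, or 12 and 11. Counts over all tested genes fell too, to 3684 and 1413 without the first resistant and 5633 and 2239 without the second susceptible submerged library. Of the 26 genes called in controls, 12 were called in the same direction under water (46.2%) and none in the opposite one, against 44.1% and 0.492% of all tested genes called in controls.

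BnaC02G0555600ZS, on C02, had the largest difference in favour of the resistant pool under water. It was at 556, 569 and 546 RPKM in resistant and 114, 48.5 and 112 RPKM in susceptible submerged libraries, 6.47-fold higher (log2 difference 2.69 ± 0.31, SE; limma adjusted p = 0.000381). In controls it was at 427 ± 59.4 and 223 ± 69.4 RPKM (SD, n = 3), so it was an abundant gene only through the resistant controls. BnaC09G0013000ZS followed, 4.96-fold higher at 372 ± 33.3 against 85.0 ± 57.0 RPKM (SD, n = 3; limma adjusted p = 0.00454). It too was an abundant gene only through the resistant controls. BnaC06G0389200ZS was 8.73-fold lower in the resistant pool, at the 3 resistant values given above against 371, 788 and 458 RPKM (limma adjusted p = 9.8e-05). BnaC04G0002700ZS, on C04, was at 169, 155 and 134 against 441, 419 and 474 RPKM, 2.91-fold lower (limma adjusted p = 0.000449). Its control levels were 248 ± 33.1 against 531 ± 119 RPKM (SD, n = 3), so it was an abundant gene only through the susceptible controls. For BnaC02G0555600ZS, BnaC09G0013000ZS and BnaC04G0002700ZS, the pool that was higher under water is the pool whose controls admitted the gene. Their differences under water are therefore a description.

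The responses of the 2 pools differed by test in 1 of the 195 genes, 0.513%, against 0.333% of all tested genes called either way, with 0.192% above and 0.141% below the susceptible response (limma interaction, adjusted p under 0.05). An unadjusted p under 0.05 was found for 23 genes (11.8%), against 13% of all tested genes. The gene was BnaC06G0389200ZS, which fell 25.2-fold in resistant but 3.30-fold in susceptible seedlings, from 1760.2, 1850.5 and 1483 RPKM in susceptible controls to 371, 788 and 458 RPKM. The log2 difference of the responses was -2.93 ± 0.41 (SE; limma adjusted p = 0.0226). It stayed between -2.65 and -2.99 in the 6 alternatives that lost the call, namely quantile normalization and leaving out the third resistant control, the first or the third resistant submerged library or the first or the third susceptible control (adjusted p between 0.0529 and 0.075). For BnaC04G0158800ZS the difference was 2.70 ± 0.62 (SE; limma adjusted p = 0.101) and for BnaA02G0077500ZS 1.19 ± 0.28 (SE; limma adjusted p = 0.105), neither past the threshold.

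The spread between replicates was somewhat wider in the abundant genes than in tested genes averaging 10 RPKM or more. The median coefficient of variation was 17.3%, 12.1%, 20.4% and 22.4% in resistant control, resistant submerged, susceptible control and susceptible submerged libraries, against 13.4%, 10.5%, 15.7% and 15.3%. The least steady gene, BnaA01G0425500ZS, was at 113, 136 and 1033 RPKM before and 65.9, 234 and 52.5 RPKM after submergence in resistant seedlings, and at 186, 143 and 322 RPKM before and 1173, 72.1 and 182 RPKM after it in susceptible seedlings. A single control library put it among the abundant genes, and no comparison passed the test for it. BnaA03G0212100ZS was next, at 392 ± 269.9 RPKM before and 251 ± 138 RPKM after submergence in resistant, and 764 ± 276 and 360.5 ± 84.3 RPKM in susceptible seedlings (SD, n = 3).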

How the data were processed

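The authors deposited RPKM values of 12 libraries, 1 column per library and not pooled; HISAT2 and StringTie are named in the submitters' processing notes, with no version or setting. Genome build: not given in the sources used here. Genes and lists were chosen with earlier results of these data known. Abundant genes were those with identifiers starting BnaA or BnaC and a mean of at least 300 RPKM over the 6 controls. Values were taken as log2(RPKM + 1), a scale on which a fold change understates that of weakly expressed genes. The 57391 genes reaching 1 RPKM in 3 or more libraries were tested with limma 3.58.1 (R 4.3.3; mean-variance trend on), 4 group means in 1 fit (8 residual and 3.345 prior degrees of freedom), 2-sided p-values and Benjamini-Hochberg adjustment over all tested genes at 0.05; all 195 passed the filter. The fit was tested on simulated data. The genes named are the 3 highest in controls, the 2 largest changes each way in each comparison among called genes whose groups did not overlap (calls alone for the difference between responses), those next to the limit, the 2 highest newcomers under water and the 2 least steady; neighbouring groups and level bands were chosen after the data were seen. Relative depth came from ratios of values in genes under 0.2 RPKM in all libraries; 63 of 66 pairs agreed within 0.01 log2. With no read counts, no counting intervals are given. No 2 libraries were identical. The labels call the replicates biological but do not say how they were grown apart, so p-values measure the spread between these libraries. Python 3.11.15, numpy 2.4.6, pandas 2.3.3 and matplotlib 3.10.9 were used for summaries and plots. Alternatives were a pseudocount of 0.1, no filter, a mean of 5 RPKM, 4 scalings, a replicate block, only the groups compared, each library left out, limits of 200 and 500 RPKM and choice from the other pool.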

Additional observations from a re-analysis of the deposited data

Results flagged for a closer look

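The fall of BnaC06G0389200ZS differed between the pools by the interaction test, with a log2 difference of -2.93 (limma adjusted p = 0.0226). Every submerged library of both pools was below every control. The 6 controls lay between 1369 and 1850.5 RPKM. The resistant submerged libraries lay between 44.5 and 85.5 RPKM and the susceptible ones between 371 and 788 RPKM. Groups of 3 libraries are too small for the search for single outlying samples.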

How the results depend on the processing

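Percentages are of the 195 genes unless stated. Without the filter, 3.08% rose in resistant and 2.56% in susceptible seedlings; between pools 2.05% were higher in controls, and 5.13% higher and 4.62% lower under water. Median ratio scaling gave rises of 12.8% and 10.8%, susceptible falls of 25.1%, pool differences upward of 2.05% in controls and 5.13% under water, and 95.5 newcomers per 100 abundant genes in place of 52.3. Quantile normalization gave 0% for the difference between responses, and 7.18% and 17.4% for higher levels in the resistant pool in controls and under water. Fitting only the groups compared gave 3.08% rises and 27.2% falls in the susceptible pool, and 2.56% higher and 3.08% lower in controls. A limit of 200 RPKM gave 1 of 352 genes (0.284%) for the difference between responses, and a limit of 500 RPKM gave 1 of 77 (1.30%). Of those 77 genes, 1.30% were higher and 2.60% lower in controls, and 6.49% and 3.90% under water. The cause was not tested. Leaving out single libraries gave, in the resistant pool, rises of 4.62% to 9.23% and falls of 30.3% to 36.9%; in the susceptible pool, 4.10% to 6.67% and 29.2% to 39.5%; for the difference, 0% to 0.513%. Between pools it gave 1.54% to 9.74% higher and 4.62% to 12.3% lower in controls, and 4.10% to 17.9% and 4.10% to 10.8% under water. The balance between pools under water turned from more higher to more lower genes with median ratio scaling (10 and 22, median log2 difference -0.03), a replicate block and without the first resistant submerged library (8 and 10). Over all tested genes the counts there were 4828 higher and 4073 lower, 5721 and 2482, and 3684 and 1413. Of 17 calls of named genes, 14 held in every alternative run; that of BnaC09G0013000ZS in controls was lost without the third resistant or the second susceptible control (limma adjusted p = 0.0611 and 0.0622), that of BnaC06G0389200ZS for the difference as given above, and that of BnaC04G0381200ZS in the susceptible pool was lost without the filter (limma adjusted p = 0.0562). Replicate numbers did not consistently pair the libraries (same-number correlations -0.34 to 0.39). Between susceptible control and submerged libraries, 4 of 6 correlated best with their own number, against 0 to 2 in the other pairs of groups. With a replicate block, 15 genes rose and 69 fell in the resistant and 11 and 72 in the susceptible pool, 6 were higher (3.08%) and 16 lower in controls, 15 and 17 under water, and 1 differed in response. Unknown absolute depth and 3 libraries a group limit the precision.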

Other observations

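Identifiers that name no A or C chromosome included 19 at 300 RPKM or more in controls; together they held 1.16% of the summed RPKM in resistant controls and 0.649% under water, and 1.31% and 0.780% in the susceptible pool. Summed over group means, the 195 genes came to 111224 RPKM in resistant controls and 94949 RPKM under water; 62 genes with a higher mean added 14294 RPKM and 133 with a lower mean changed the sum by -30569 RPKM. In the susceptible pool the sum went from 105335 to 84487 RPKM, with 59 genes adding 10934 RPKM and 136 changing it by -31782 RPKM. The log2 estimate was under 0 for similar shares of all tested genes. In the resistant pool it was for 67.69% of the 195 and 67.65% of all tested genes, and in the susceptible pool for 70.8% and 66.6%. The 5 largest gains made up 39.0% and 40.7% of the gain, and the 10 largest losses 24.3% and 25.4% of the loss.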
